A study of Mus musculus with 40 samples.

Results

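Transcript levels of 10 mouse genes of endoplasmic reticulum (ER) protein folding and ER stress were followed through the grades of airway squamous dysplasia. The genes were Fkbp11, Xbp1, Creld2, Hspa5, Sdf2l1, Pdia4, Hsp90b1, Dnajb9, Atf4 and Ddit3. They were taken by symbol from the 37310 genes of the count table (mm9 build), each matched exactly 1 row, and all 10 passed the filter on low values that left 15630 genes to test. The genes were chosen by their levels (log2 CPM, the log2 of counts scaled to library size) across grade, sample type and strain with earlier results of these same samples known, so differences along those lines are given as a description of the chosen genes and not as independent evidence.

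In mm9, Xbp1 (ENSMUSG00000020484) lies at chr11:5420662-5425896 on the plus strand, Hspa5 (ENSMUSG00000026864) at chr2:34627490-34632051 plus, Sdf2l1 (ENSMUSG00000022769) at chr16:17130231-17132476 minus, Pdia4 (ENSMUSG00000025823) at chr6:47746141-47763511 minus and Dnajb9 (ENSMUSG00000014905) at chr12:45306884-45311055 minus. Chromosome 10 carries Hsp90b1 (ENSMUSG00000020048) at chr10:86152954-86168254 minus and Ddit3 (ENSMUSG00000025408) at chr10:126727830-126733344 plus. Chromosome 15 carries Fkbp11 (ENSMUSG00000003355) at chr15:98554804-98558629 minus, Creld2 (ENSMUSG00000023272) at chr15:88650076-88657111 plus and Atf4 (ENSMUSG00000042406) at chr15:80085614-80087970 plus. All 10 are protein-coding, and counts are over their exons.

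Mice of the SWR/J and A/J strains were painted with the carcinogen N-nitroso-tris-chloroethylurea (NTCU), which gives squamous lesions in the airways, or with acetone vehicle, and bulk RNA was sequenced from laser capture microdissected (LCM) tissue or from whole lung sections. Of 40 samples, the 25 that passed quality control (QC) were used: 7 normal samples from vehicle-treated mice (4 SWR/J, 3 A/J, 0 µmol NTCU), 5 with mild dysplasia (all SWR/J, 15 µmol), 9 with moderate to severe dysplasia (6 SWR/J at 25 to 30 µmol, 3 A/J at 14 µmol), 2 with severe dysplasia (SWR/J, 50 µmol), 1 carcinoma in situ and 1 squamous cell carcinoma (SCC) tumor (both A/J, 20 µmol). The last 4 grades, 13 samples, are called high-grade. There were 13 LCM and 12 whole lung samples. The grade of a whole lung section was its worst histology, so a section also held tissue of lower grade, and in bulk RNA fewer cells of a type and less RNA per cell cannot be told apart. NTCU dose and strain moved with grade and their effects cannot be told apart from it beyond the strain term of the fit. The labels do not say which samples shared a mouse, so the p-values measure the spread between samples only.

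Expected counts (RSEM estimates of reads per gene) summed to between 2667387 and 16534728 per sample (median 9075416), and the median transcript integrity number (TIN, a measure of RNA quality) ranged from 21.7 to 75.1. One whole lung sample of severe dysplasia stood apart by its plasma cell transcripts, with Igkc (immunoglobulin kappa constant region) at 14.34 and Igj (the joining chain) at 12.38 log2 CPM, both the highest of the 25 samples, and several values of Creld2, Hsp90b1 and Pdia4 are also given without it. For 2 of the 25 samples, 1 normal and 1 of mild dysplasia, the free-text description named a different histology from the grade label. The grade label was used.

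Secreted and membrane proteins are folded in the ER. When unfolded proteins accumulate there, 3 sensors of the ER membrane signal to the nucleus: IRE1 (Ern1), which splices Xbp1 mRNA so that it encodes an active transcription factor, ATF6, which is cleaved to release one, and PERK (Eif2ak3), which slows translation and favours that of Atf4. These factors raise the chaperones and folding enzymes of the ER, and under lasting stress ATF4 raises Ddit3, which encodes CHOP. The same genes are high in cells that secrete much protein. XBP1 is needed for the differentiation of plasma cells, which secrete antibody, and the airway holds secretory epithelium as well, so that both kinds of cell are possible carriers of these transcripts in lung samples. Gene counts do not separate spliced from unspliced Xbp1.

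The ER stress element, which ATF6 and XBP1 are known to bind together with NF-Y, is CCAAT, any 9 bases, then CCACG. It was searched on both strands in the 250 bases before each RefSeq gene start (build GRCm38.p6, which is not the build of the counts), and the 3 members that hold it are shown because they carry the classical chaperone promoter, with the element in capitals. On the opposite strand it reads CGTGG, 9 bases, ATTGG.
Hspa5 (chr2:34771840-34772089, plus strand, bases -250 to -1): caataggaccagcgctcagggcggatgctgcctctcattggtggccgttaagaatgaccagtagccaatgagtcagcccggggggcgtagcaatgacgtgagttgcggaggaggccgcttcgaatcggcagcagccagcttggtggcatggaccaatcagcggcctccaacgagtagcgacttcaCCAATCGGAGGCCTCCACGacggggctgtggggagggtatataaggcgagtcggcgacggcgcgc
Creld2 (chr15:88819396-88819645, plus strand, bases -250 to -1): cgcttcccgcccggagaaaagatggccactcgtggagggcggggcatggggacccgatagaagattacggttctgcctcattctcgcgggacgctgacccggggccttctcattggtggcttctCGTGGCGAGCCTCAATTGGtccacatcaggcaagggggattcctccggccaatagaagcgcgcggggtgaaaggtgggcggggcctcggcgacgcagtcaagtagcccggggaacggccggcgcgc
Hsp90b1 (chr10:86705520-86705694, minus strand, bases -250 to -76): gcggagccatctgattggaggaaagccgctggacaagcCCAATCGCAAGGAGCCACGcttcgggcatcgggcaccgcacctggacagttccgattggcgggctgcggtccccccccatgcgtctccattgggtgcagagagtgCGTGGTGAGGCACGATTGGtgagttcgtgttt
The element was in the window of 0.141% of 16273 genes with a listed promoter. Hsp90b1 held 2 copies, 1 on each strand, Hspa5 held 1 on its own strand at bases -65 to -47, and Creld2 held 1 on the opposite strand at bases -126 to -108. The related element II (ATTGG, any 1 base, CCACG), in 0.0369% of genes, and the unfolded protein response element TGACGTGG, in 0.731%, had no match in any member, and neither did TGATGNAA, a sequence that ATF4 is known to bind with C/EBP proteins, in 3.42%. The sequence CCACG, the second arm of the element, alone was in 7 of the 10 members and in 36.1% of genes. Only exact matches within the 250 bases were counted, so sites with a mismatch or further from the gene start were not searched for.

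Per kilobase of exon, Hspa5, which encodes BiP, the main chaperone of the ER, was the most abundant member, with a median of 112 CPM per kb over the 25 samples (range 55.2 to 184). Hsp90b1, the ER paralogue of HSP90, followed with a median of 96.9 CPM per kb (65.9 to 264), and Atf4 with 83.4 CPM per kb (51.8 to 153). Their ranges overlapped. Xbp1 had a median of 59.4 CPM per kb, Pdia4, a protein disulfide isomerase, 41.7, Creld2, another ER disulfide isomerase, 32.8, and Sdf2l1, a partner of BiP, 24.2 CPM per kb. The lowest medians were those of Ddit3 (13.1), Dnajb9, a co-chaperone of BiP (12.7), and Fkbp11, a peptidyl-prolyl isomerase of the ER membrane (5.34 CPM per kb). Fkbp11 was thus the most thinly counted member, with 9 to 255 expected counts per sample (median 38), so that its single values carry the largest counting error. Counts that are not whole, which arise where reads were shared between genes, made up 24 of 25 values for Hspa5, Pdia4 and Hsp90b1, 23 for Xbp1 and none for Fkbp11, at a tolerance of 0.005.

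Fkbp11 and Xbp1 had their highest values in samples beyond moderate to severe dysplasia, though neither rose at every step of grade. Fkbp11 ranged from 0.50 to 2.04 log2 CPM in the 7 normal samples, with a median of 1.41. In mild dysplasia it was 2.402, 2.36 and 1.57 in the LCM samples and 1.70 and 1.97 in the whole lung samples. In moderate to severe dysplasia it ranged from 1.30 to 3.66 with a median of 2.42. It was 3.96 and 4.47 in severe dysplasia, 3.44 in the carcinoma in situ and 4.20 in the SCC tumor. Both severe dysplasia samples were also low in RNA quality (median TIN 21.7 and 33.9), while the carcinoma in situ and the SCC tumor were at 55.8 and 68.8. The last 4 samples lay above every normal sample and also above every sample of mild dysplasia, whereas moderate to severe dysplasia overlapped both. At up to 3.66, moderate to severe dysplasia also reached above the carcinoma in situ at 3.44.

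Xbp1, the transcription factor of the IRE1 branch, ranged from 6.80 to 7.91 log2 CPM in normal samples, with a median of 7.28. In mild dysplasia it was 8.13, 8.32 and 8.28 in the LCM samples and 7.18 and 7.59 in the whole lung samples, and in moderate to severe dysplasia it ranged from 7.08 to 8.41 with a median of 7.57. It was 8.66 and 9.50 in severe dysplasia, 8.61 in the carcinoma in situ and 9.92 in the SCC tumor. The median of Xbp1 was higher in mild dysplasia (8.13) than in moderate to severe dysplasia. Unlike for Fkbp11, the 4 samples of the later grades lay above every sample of the lower grades, moderate to severe dysplasia included. Fkbp11 and Xbp1 were the 2 of 10 members in which the 4 samples beyond moderate to severe dysplasia all exceeded all 7 normal samples, a pattern that 0.531% of the genes tested had.

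**Figure D1:**
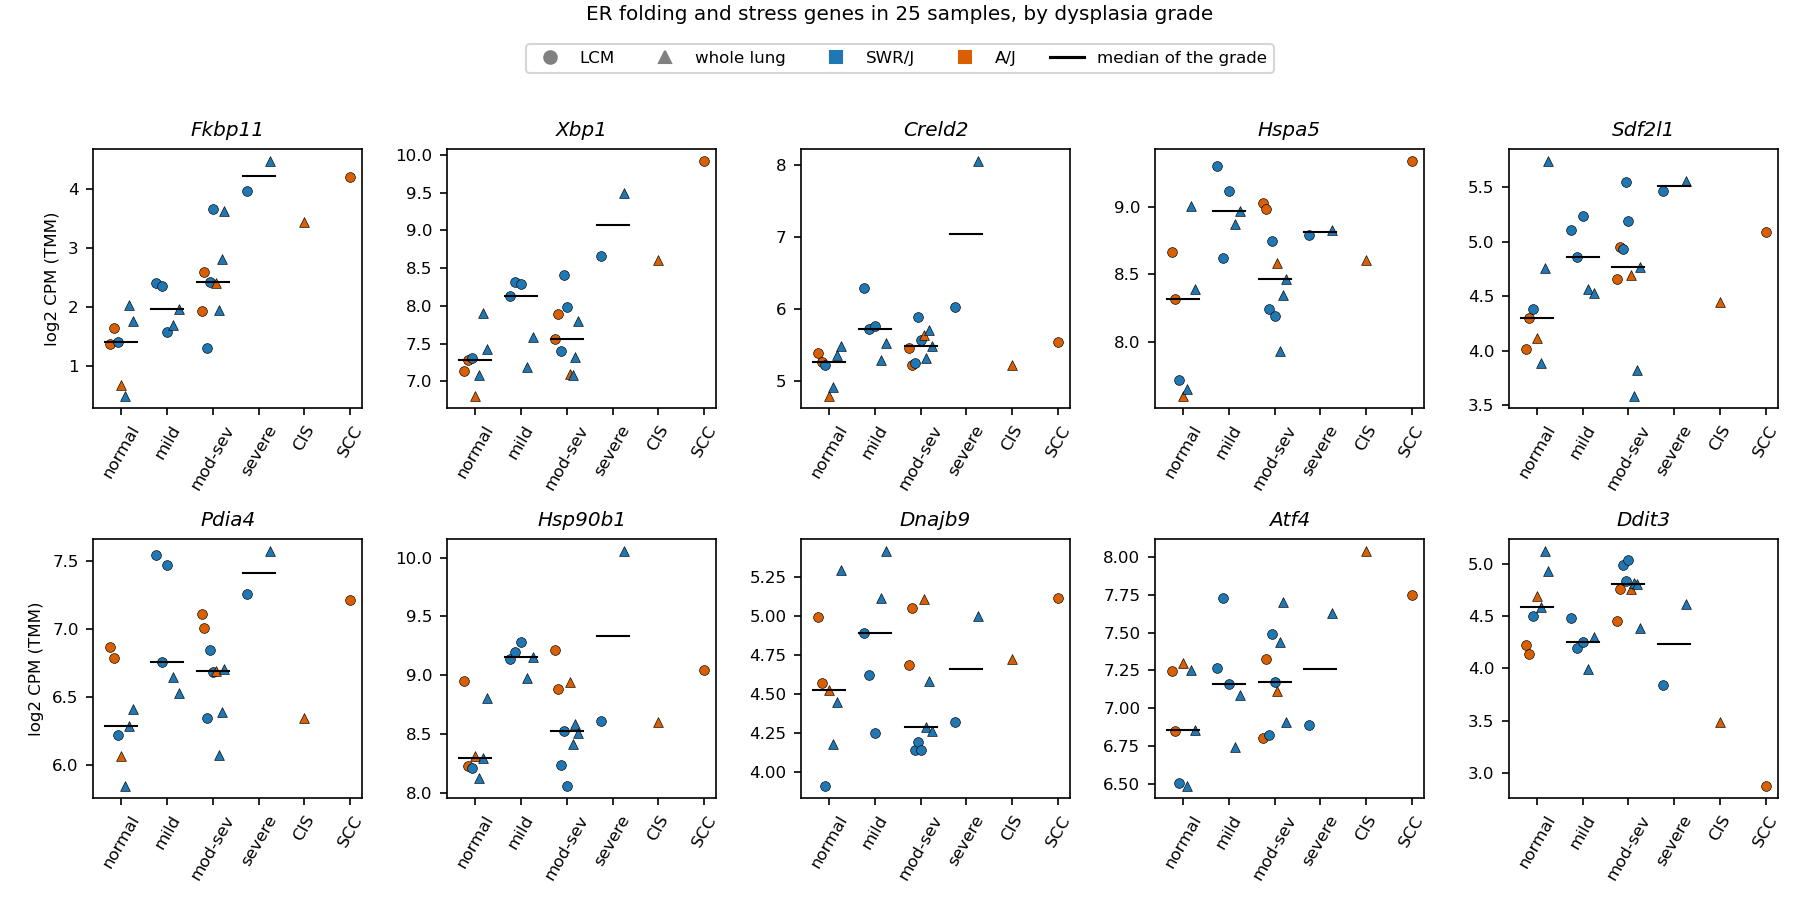
Level of each gene in log2 CPM (vertical axis, TMM-scaled, its own range per panel) in the 25 samples by dysplasia grade (horizontal axis), with circles for LCM, triangles for whole lung, blue for SWR/J, orange for A/J and a line at the median of grades with 2 or more samples. Xbp1 is highest in severe dysplasia, carcinoma in situ (CIS) and the SCC tumor. Fkbp11 is highest in severe dysplasia and the SCC tumor, while its CIS value of 3.44 lies below the top of moderate to severe dysplasia (3.66). Ddit3 is lowest in the SCC tumor at 2.87, and Hsp90b1 in mild dysplasia lies between 8.97 and 9.28.

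The levels were fitted across all 15630 genes with terms for strain, sample type and median TIN (edgeR's quasi-likelihood test, p adjusted over all genes). With grade as a rank from 0 (normal) to 4 (carcinoma in situ or SCC tumor), 2 of the 10 members passed an adjusted p of 0.05, against 0.262% of all genes. Fkbp11 differed by 0.67 log2 units per step of grade (SE 0.11, adjusted p = 0.00789) and Xbp1 by 0.47 per step (SE 0.094, adjusted p = 0.0274). Both slopes were positive. Since grade was among the values the list was read by, nothing is drawn from this count. Of the other 8 members, 7 had positive slopes between 0.057 (Dnajb9) and 0.24 (Creld2, 0.071 without the severe dysplasia sample high in plasma cell transcripts) and Ddit3 had a slope of -0.20 (SE 0.086, adjusted p = 0.312).

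These calls rested on few samples. Without the SCC tumor the slope of Fkbp11 was 0.58 (adjusted p = 0.191), that of Xbp1 was 0.32 (adjusted p = 0.355), and neither was called. Without both the carcinoma in situ and the SCC tumor the slopes were 0.61 and 0.26 and no gene of the 15668 then tested was called, with adjusted p of 0.869 and 0.884. Within LCM samples alone the slope of Fkbp11 was 0.60 and within whole lung alone 0.74, and for Xbp1 these were 0.57 and 0.40. Positive slopes were thus found in both sample types, but with no call in either, where no gene at all was called. The SCC tumor was among the LCM samples and the carcinoma in situ among the whole lung samples, so each subset held a sample of the top rank. SWR/J samples alone hold neither. There the slope of Fkbp11 was 0.67 (SE 0.21) and that of Xbp1 was 0.29 (SE 0.17), again with no gene called.

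In high-grade samples as 1 group against normal, none of the 10 members was called by edgeR, against 0.0192% of all genes (3 genes). At an unadjusted p under 0.05 there were 2, Fkbp11 and Xbp1, against 9.14% of all genes. DESeq2 called 1, Fkbp11, and over all genes it called 91 of 15630. The fitted difference was 1.67 log2 units for Fkbp11 (SE 0.45, adjusted p = 0.317, and 1.64 with adjusted p = 0.0313 by DESeq2) and 0.90 for Xbp1 (SE 0.39, adjusted p = 0.52). Without the SCC tumor the difference was 1.22 for Fkbp11 and 0.47 for Xbp1. The other differences lay between -0.14 (Ddit3) and 0.47 (Creld2). Without the severe dysplasia sample high in plasma cell transcripts Creld2 differed by 0.19, Hsp90b1 by 0.20 in place of 0.37 and Pdia4 by 0.20 in place of 0.31. The median over the members was 0.33, against -0.011 over all genes.

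Among the 3 histology groups, the chaperones Hsp90b1, Hspa5 and Pdia4 had their highest medians in mild dysplasia, as did Xbp1, Creld2 and Dnajb9. Hsp90b1 was 9.13, 9.19 and 9.28 log2 CPM in the LCM samples of mild dysplasia and 8.97 and 9.15 in the whole lung samples. In normal samples it ranged from 8.13 to 8.95 with a median of 8.30, so the groups did not overlap. In high-grade samples it ranged from 8.05 to 10.06 with a median of 8.60. Hsp90b1 was the 1 member whose 5 mild samples all exceeded all 7 normal samples, which 0.486% of genes did.

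Hspa5 was 9.30, 8.62 and 9.12 log2 CPM in the LCM samples of mild dysplasia and 8.87 and 8.97 in whole lung, against 7.60 to 9.01 in normal samples (median 8.32). The groups overlapped through 1 normal whole lung sample at 9.01. Pdia4 was 7.54, 6.76 and 7.47 in LCM and 6.65 and 6.53 in whole lung, against 5.85 to 6.87 in normal samples (median 6.29), again with overlap.

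Against normal, the fitted differences in mild dysplasia were 0.87 for Hspa5 (SE 0.29, adjusted p = 0.0511), 0.84 for Hsp90b1 (SE 0.31, adjusted p = 0.0695) and 0.72 for Pdia4 (SE 0.26, adjusted p = 0.0623). None of the 10 members was called, although 12.4% of all genes were. At an unadjusted p under 0.05 there were 4 (these 3 and Dnajb9, at 0.49), against 32.7% of all genes. DESeq2 called 3, Hspa5, Pdia4 and Hsp90b1, and over all genes it called 3653 of 15630. The difference of Ddit3 was -0.52 (SE 0.30, adjusted p = 0.23) and that of Sdf2l1 was 0.047. The median over the members was 0.58, against -0.021 over all genes. Every sample of mild dysplasia came from SWR/J mice. Within SWR/J samples alone the differences were 0.89 for Hspa5, 0.95 for Hsp90b1 and 0.85 for Pdia4, with adjusted p of 0.0652, 0.108 and 0.0869.

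Between high-grade samples and mild dysplasia no member was called by edgeR or by DESeq2, against 0.326% of all genes called by edgeR. At an unadjusted p under 0.05 there were 0 members, against 22.5% of all genes. The fitted differences ranged from -0.60 (Hspa5, SE 0.29) to 0.89 (Fkbp11, SE 0.58). Without the SCC tumor the value of Fkbp11 was 0.46 and that of Xbp1 was -0.24 in place of 0.23.

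**Figure D2:**
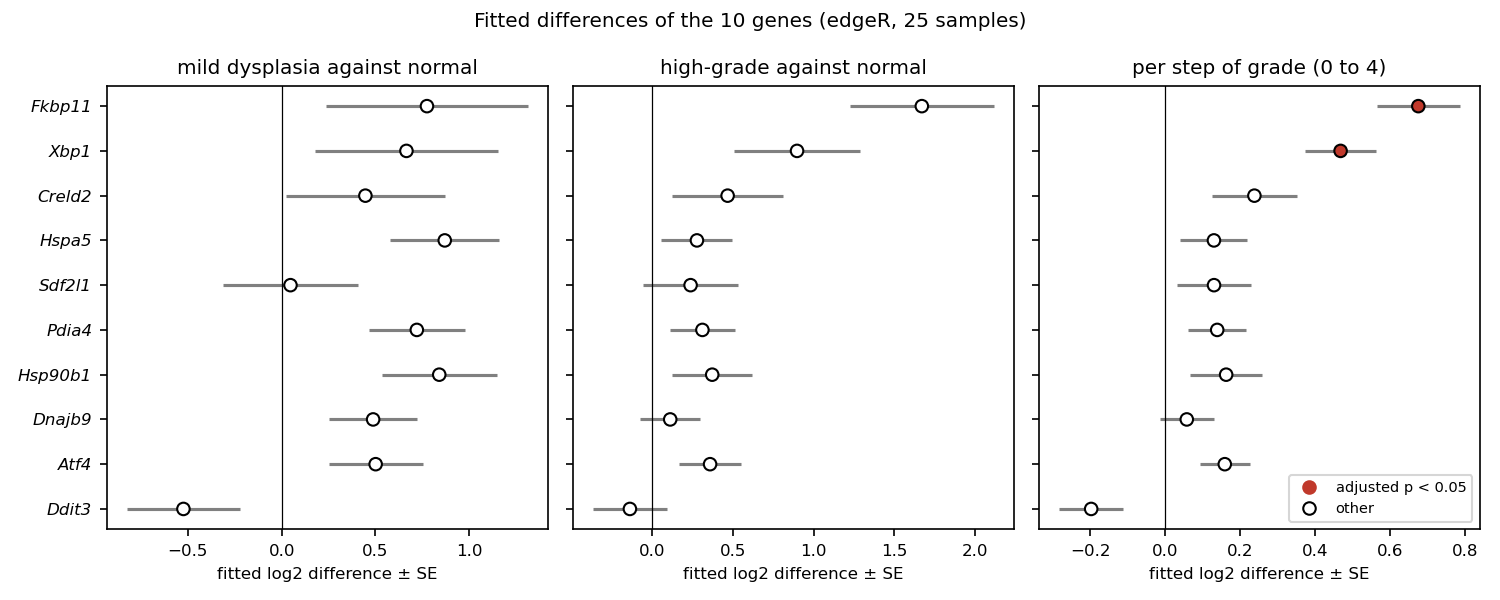
Fitted log2 differences (horizontal axis, points, with bars of 1 SE) of the 10 genes (vertical axis) for mild dysplasia against normal, high-grade against normal, and per step of grade, in 25 samples. Red points passed an adjusted p of 0.05, and only Fkbp11 (0.67) and Xbp1 (0.47) in the right panel did so.

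The stress-induced transcription factors Atf4 and Ddit3 were not called. Atf4 was 8.04 log2 CPM in the carcinoma in situ and 7.75 in the SCC tumor, the highest 2 of the 25 samples, and ranged from 6.48 to 7.30 in normal samples (median 6.86). Its slope per step of grade was 0.16 (SE 0.066, adjusted p = 0.295). Ddit3, the pro-apoptotic target of ATF4, was 2.87 in the SCC tumor and 3.49 in the carcinoma in situ, the lowest of all samples, against 4.14 to 5.12 in normal samples (median 4.58) and 4.39 to 5.04 in moderate to severe dysplasia (median 4.81). Across the 25 samples, after adjustment for median TIN, strain and sample type, Ddit3 had negative correlations with all 9 other members, down to r = -0.66 with Xbp1 and -0.56 with Fkbp11. Grade was not among the terms adjusted for, and no r was computed without the carcinoma in situ and the SCC tumor.

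In the same adjusted values the closest pairs were found among the chaperones. Pearson's r was 0.87 between Pdia4 and Hsp90b1, 0.84 between Creld2 and Hsp90b1, 0.82 between Creld2 and Pdia4 and 0.78 between Hspa5 and Pdia4. Fkbp11 had its highest r with Xbp1, at 0.79. Other chaperone pairs were looser, with r of 0.49 between Hspa5 and Creld2, 0.49 between Sdf2l1 and Creld2 and 0.48 between Sdf2l1 and Hsp90b1. Among the 3 members with the ER stress element printed above, r was 0.84 for Creld2 and Hsp90b1, 0.70 for Hspa5 and Hsp90b1 and 0.49 for Hspa5 and Creld2. These values share library, depth and RNA quality beyond the terms adjusted for, and are given as a description. They include the severe dysplasia sample high in plasma cell transcripts. It was the highest sample for Creld2 (8.06 log2 CPM, next 6.29), Hsp90b1 (10.06, next 9.28) and Pdia4 (7.57, next 7.54). No r was computed without that sample, so its weight in these pairs, and in the nearest genes below, was not tested. Of the 15620 genes outside the list, Txndc5, an ER disulfide isomerase, had the highest r with 3 members, Creld2 (0.91), Hsp90b1 (0.87) and Pdia4 (0.86). The nearest gene to Xbp1 was Ppapdc1b (0.88), to Fkbp11 Lgmn (0.84), to Dnajb9 Serp1 (0.80), to Hspa5 Pcdhb22 (0.87), to Atf4 Als2cl (0.86), to Sdf2l1 Gm15987 (0.79) and to Ddit3 2900008C10Rik (0.86).

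**Figure D3:**
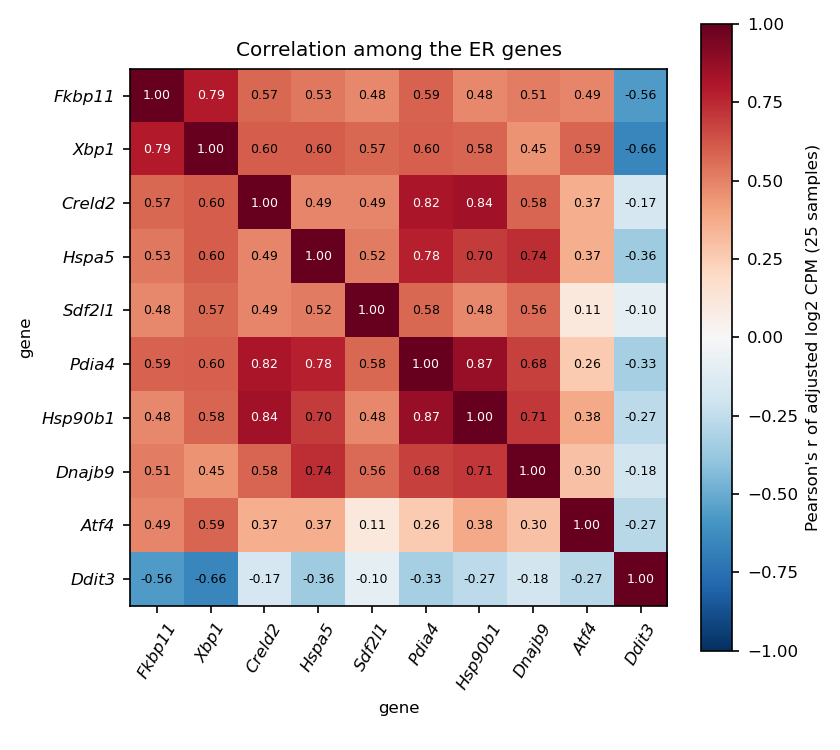
Pearson's r between each pair of the 10 genes over 25 samples, from log2 CPM adjusted for median TIN, strain and sample type (colour scale from -1 to 1). The chaperones Creld2, Pdia4 and Hsp90b1 have r of 0.82 to 0.87 with each other. The severe dysplasia sample high in plasma cell transcripts, which was highest for each of them, is included. The row of Ddit3 is negative throughout, down to -0.66.

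Plasma cells were set beside these levels through 15 measured marker genes, 7 of the immunoglobulin list and all 8 of the other list, whose mean log2 CPM is called the plasma cell score. The list includes Sdc1 and Prdm1, which epithelium also expresses. The score ranged from 3.62 to 7.17 in normal samples (median 4.73), from 2.75 to 6.003 in mild dysplasia (median 4.52) and from 2.61 to 8.44 in high-grade samples (median 4.49). The 3 groups overlapped throughout. The summed level of the immunoglobulin genes ranged from 7.30 to 13.4 log2 CPM in normal and from 7.24 to 15.2 in high-grade samples, and that of the other plasma cell genes from 7.10 to 9.23 and from 7.58 to 10.3. None of the 15 was at 0 in all samples.

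The samples beyond moderate to severe dysplasia differed widely in plasma cell transcripts. The SCC tumor, with Xbp1 at 9.92 and Fkbp11 at 4.20, had Mzb1 (an ER chaperone of B lineage cells) at 1.36, Igkc at 8.58 and Ighm, the mu heavy chain, at 3.21 log2 CPM. The carcinoma in situ, with Xbp1 at 8.61 and Fkbp11 at 3.44, had the lowest Mzb1 of the 25 samples, 0.67, with Igkc at 7.69. The severe dysplasia in whole lung, with Xbp1 at 9.50 and Fkbp11 at 4.47, had the highest Mzb1, 9.13, and also the highest Creld2 (8.06) and Hsp90b1 (10.06). In reverse, 1 normal whole lung sample with Mzb1 at 7.02 and Igkc at 12.09 had Fkbp11 at 1.77, Xbp1 at 7.42 and Creld2 at 5.49, with Fkbp11 and Xbp1 inside the range of the other normal samples. The severe dysplasia in LCM, with Xbp1 at 8.66 and Fkbp11 at 3.96, lay between, with Mzb1 at 3.76 and Igkc at 9.29. High Fkbp11 and Xbp1 thus occurred with Mzb1 at both ends of its range and in its middle. Other markers were not always as extreme. Igj in the SCC tumor was 7.73, the median of the 25 samples. Ighm in the whole lung severe dysplasia was 8.40, near its median of 8.20.

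Fitted with histology group, median TIN, strain and sample type, the plasma cell score was called for 1 of the 10 members, Creld2, against 3.08% of all genes. Creld2 differed by 0.31 log2 units per unit of score (SE 0.071, adjusted p = 0.0183), Hsp90b1 by 0.20 (SE 0.06, adjusted p = 0.0681) and Pdia4 by 0.14 (SE 0.055, adjusted p = 0.189). For Fkbp11 the value was 0.15 (SE 0.13, adjusted p = 0.627) and for Xbp1 0.084 (SE 0.11, adjusted p = 0.772). Without the severe dysplasia sample in which these transcripts peaked, Creld2 differed by 0.026 (SE 0.062, adjusted p = 0.888) and Hsp90b1 by 0.058 (adjusted p = 0.748), and no member was called. Pdia4 then differed by 0.030, Fkbp11 by -0.053 and Xbp1 by -0.21. Within LCM samples alone the value of Creld2 was -0.074 (adjusted p = 0.673). The call of Creld2 therefore rested on that 1 sample.

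**Figure D4:**
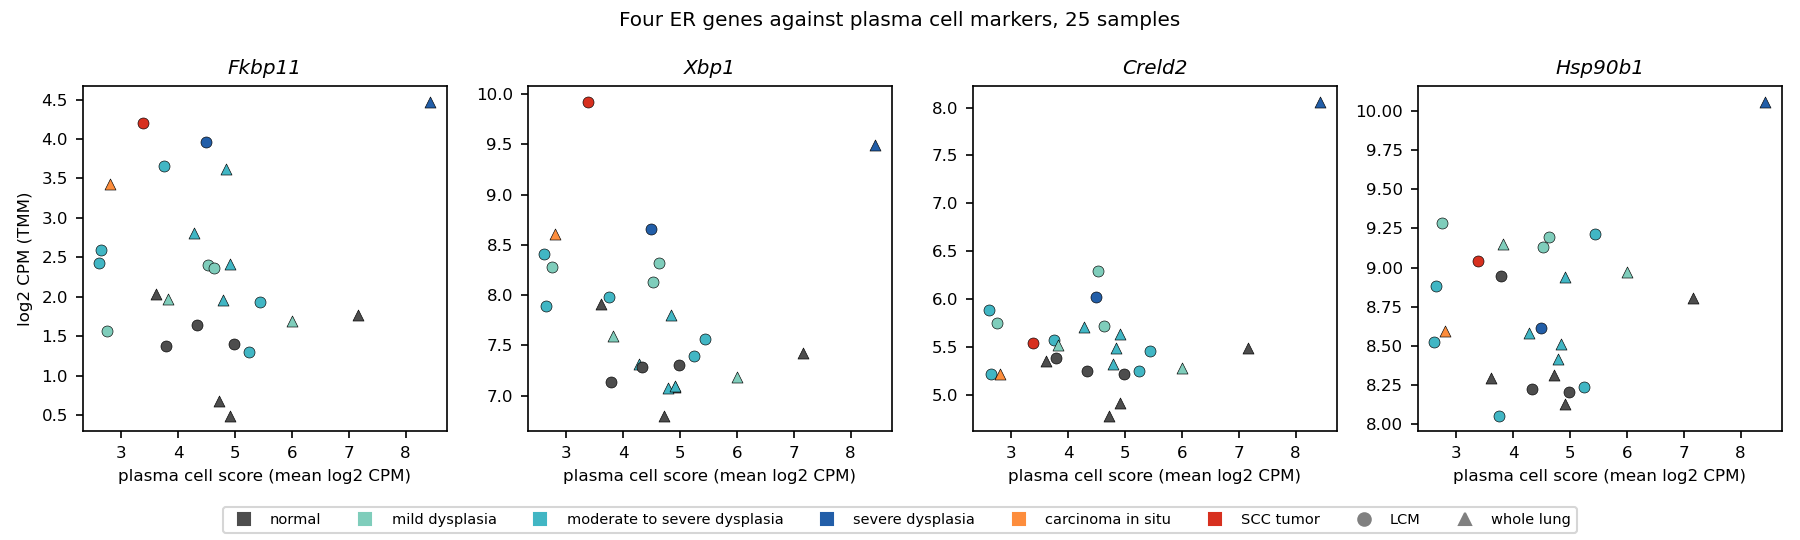
Level of Fkbp11, Xbp1, Creld2 and Hsp90b1 in log2 CPM (vertical axis) against the plasma cell score, the mean log2 CPM of 15 marker genes (horizontal axis), in 25 samples coloured by grade, with circles for LCM and triangles for whole lung. The severe dysplasia sample at a score of 8.44 is highest for 3 of the 4 genes, while the SCC tumor, at a score of 3.38, is highest for Xbp1 at 9.92.

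With the plasma cell score as a further covariate, the rank of grade was called for 2 of 10 members, against 0.493% of all genes. These were Fkbp11 (0.68 per step, SE 0.11, adjusted p = 0.00768) and Xbp1 (0.46, SE 0.096, adjusted p = 0.0295). In mild dysplasia against normal, Hsp90b1 (1.02, SE 0.26, adjusted p = 0.0273) and Pdia4 (0.85, SE 0.23, adjusted p = 0.0358) were then called, 2 of 10 against 8.37% of all genes. Both were also called without the score when the severe dysplasia sample high in plasma cell transcripts was left out. Hsp90b1 then differed by 0.85 (adjusted p = 0.0249) and Pdia4 by 0.74 (adjusted p = 0.0316). The score is made from the same libraries as the members, so this covariate adjusts for the measured markers only. Grade was among the values the list was read by, and nothing is drawn from the count for its rank. In the fits without the score, neither slope was called once the SCC tumor, whose score was 3.38, was left out. The rank fit with the score was not repeated without that tumor, so it cannot show whether the slopes depend on plasma cells.

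The same was done for 2 kinds of epithelial cell. The airway secretory score (mean of 10 markers that passed the filter, such as Scgb1a1) was called for 0 of 10 members by edgeR and by DESeq2, with 0 at an unadjusted p under 0.05, against 0.0128% of all genes. The airway basal and squamous score (12 markers, such as Krt5) was also called for 0 of 10 by both tools, against 8.62% of all genes by edgeR. At an unadjusted p under 0.05 there were 2, against 24.8% of all genes. These were Fkbp11 (0.23 per unit, SE 0.098, adjusted p = 0.154) and Xbp1 (0.19, SE 0.091, adjusted p = 0.188). This score was 3.56 ± 2.63 (SD, n = 7) in normal samples and 6.09 ± 1.90 (SD, n = 13) in high-grade samples. With it in the fit, the high-grade difference of Fkbp11 was 1.16 (SE 0.47) in place of 1.67 and that of Xbp1 was 0.48 (SE 0.42) in place of 0.90. The part of basal and squamous cells in the grade difference was not tested beyond these fits.

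Neither sample type nor strain gave a call among the members. LCM against whole lung called 0 of 10 by edgeR and by DESeq2, against 14.6% of all genes by edgeR. At an unadjusted p under 0.05 there were 2, against 30.3% of all genes. These were Pdia4 at 0.37 (SE 0.16, adjusted p = 0.131) and Dnajb9 at -0.34 (SE 0.15, adjusted p = 0.136). Without the severe dysplasia sample high in plasma cell transcripts Pdia4 was called, at 0.52 (SE 0.14, adjusted p = 0.018). Fkbp11 differed by 0.036 (SE 0.34) between the sample types. A/J against SWR/J called 0 of 10 by both tools, against 0.992% of all genes by edgeR, with 0 at an unadjusted p under 0.05 against 17.5% of all genes. The values ranged from -0.44 (Sdf2l1, SE 0.34) to 0.44 (Atf4, SE 0.24). Median TIN was called for 0 of 10 members by edgeR and by DESeq2, against 7.31% of all genes by edgeR, with 0 at an unadjusted p under 0.05 against 25.7% of all genes.

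Whether the high-grade difference itself varied with sample type or with strain was tested by interaction terms. For sample type, 0 of 10 members and 0% of all genes were called by edgeR (DESeq2: 0 members), and for strain likewise 0 of 10 and 0%, with 0 members at an unadjusted p under 0.05 in either. Over all genes 1117 and 678 had an unadjusted p under 0.05, and DESeq2 called 2 and 5. The largest terms were those of Creld2 by sample type, -0.95 (LCM minus whole lung, SE 0.53), and Xbp1 by strain, 0.98 (A/J minus SWR/J, SE 0.73).

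Around the members, 101 further genes of the pathway were read as 5 lists, of which 100 passed the filter. None passed an adjusted p of 0.05 for high-grade against normal (13 at an unadjusted p under 0.05, 2 by DESeq2) or for the rank of grade (25 unadjusted, 7 by DESeq2). Over all genes, 9.14% and 13.7% had an unadjusted p under 0.05, and DESeq2 called 91 and 538 of 15630. In mild dysplasia against normal 10 of 100 were called, 7 higher and 3 lower, against 12.4% of all genes. Of the 27 other chaperones and folding enzymes 3 rose: Fkbp14, a collagen-folding isomerase (1.75, SE 0.34), Pdia3 (0.64, SE 0.21) and Dnajc10 (0.58, SE 0.18), both of which act on disulfide bonds. Of the 10 sensors and their processing proteases, Atf6 (0.96, SE 0.25) and Creb3l2 (1.08, SE 0.31) rose. Of 18 genes of ER-associated degradation, Edem3 rose (0.90, SE 0.25) and Edem1 fell by 2.26 on the log2 scale (SE 0.66). Of 21 genes of translocation, Sec11a, a signal peptidase subunit, fell by 0.65 (SE 0.20). Of 25 targets of ATF4 and CHOP, 24 of them tested, Sesn2 rose (1.21, SE 0.33) and Mthfd2 fell by 1.63 (SE 0.40).

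With the plasma cell score 3 of the 100 were called, against 3.08% of all genes: Derl3, which removes misfolded proteins from the ER, at 1.06 log2 units per unit of score (SE 0.15), Ero1lb, an ER oxidase, at 0.45 (SE 0.087) and Nupr1 at -0.49 (SE 0.10). With the basal and squamous score 8 were called, against 8.62% of all genes, all higher, among them Psat1 (0.39, SE 0.069) of serine synthesis, P4hb (0.27, SE 0.064) and Ero1l (0.21, SE 0.051) of disulfide formation. The other 5 genes called with the basal and squamous score were Gars (0.15), Srp68 (0.14), Kdelr2 (0.13), Atf6 (0.13) and Sec61a1 (0.12). With the rank of grade beside the plasma cell score Erlec1 (0.30) and Ssr3 (0.21) were called, 2 of 100 against 0.493% of all genes. Between LCM and whole lung 9 were called, against 14.6% of all genes, 3 higher in LCM, led by Ern2 (2.70, SE 0.72), the IRE1 form of mucus-secreting epithelium, and Nupr1 (1.23, SE 0.33), and 6 lower, among them Syvn1 (-0.88, SE 0.24), Cebpb (-0.72, SE 0.20) and Ern1 (-0.69, SE 0.23). The other genes called were Spcs1 (0.70), Wars (-0.69), Ppp1r15a (-0.61) and Uggt1 (-0.34). The airway secretory markers moved with sample type as well, with 6 of 10 called, all higher in LCM, and 6 of 8 B cell markers, 3 of 7 alveolar type 2 cell markers and 4 of 8 macrophage markers were called, all lower in LCM. Their part in these differences was not tested. With median TIN 9 of the 100 were called, against 7.31% of all genes, Eif2ak3 higher and 8 lower, led by Sec61g (-0.67 per 10 units of TIN, SE 0.081).

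The 15 samples that did not pass QC were not used by the rule that names the list. They held between 17051 and 1965373 expected counts each, with Fkbp11 at a count of 0 in 8 of them and at most 21. Among them 3 were normal (all SWR/J LCM) and 10 high-grade. With sample type as the covariate, 0 of 10 members were called by edgeR and by DESeq2, against 0.0651% of 15356 genes by edgeR. At an unadjusted p under 0.05 there were 0 members, against 8.08% of all genes. The values were 1.35 for Fkbp11 (SE 1.35), 0.58 for Xbp1 (SE 0.74) and 1.65 for Sdf2l1 (SE 0.88). Xbp1 was 6.79, 7.29 and 7.68 log2 CPM in the normal samples and had a median of 8.09 in the high-grade ones, from 1.92, the level of a count of 0, to 8.86. The comparison had 3 normal samples, and the SEs were close to the value for Fkbp11 and above it for Xbp1.

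**Figure D5:**
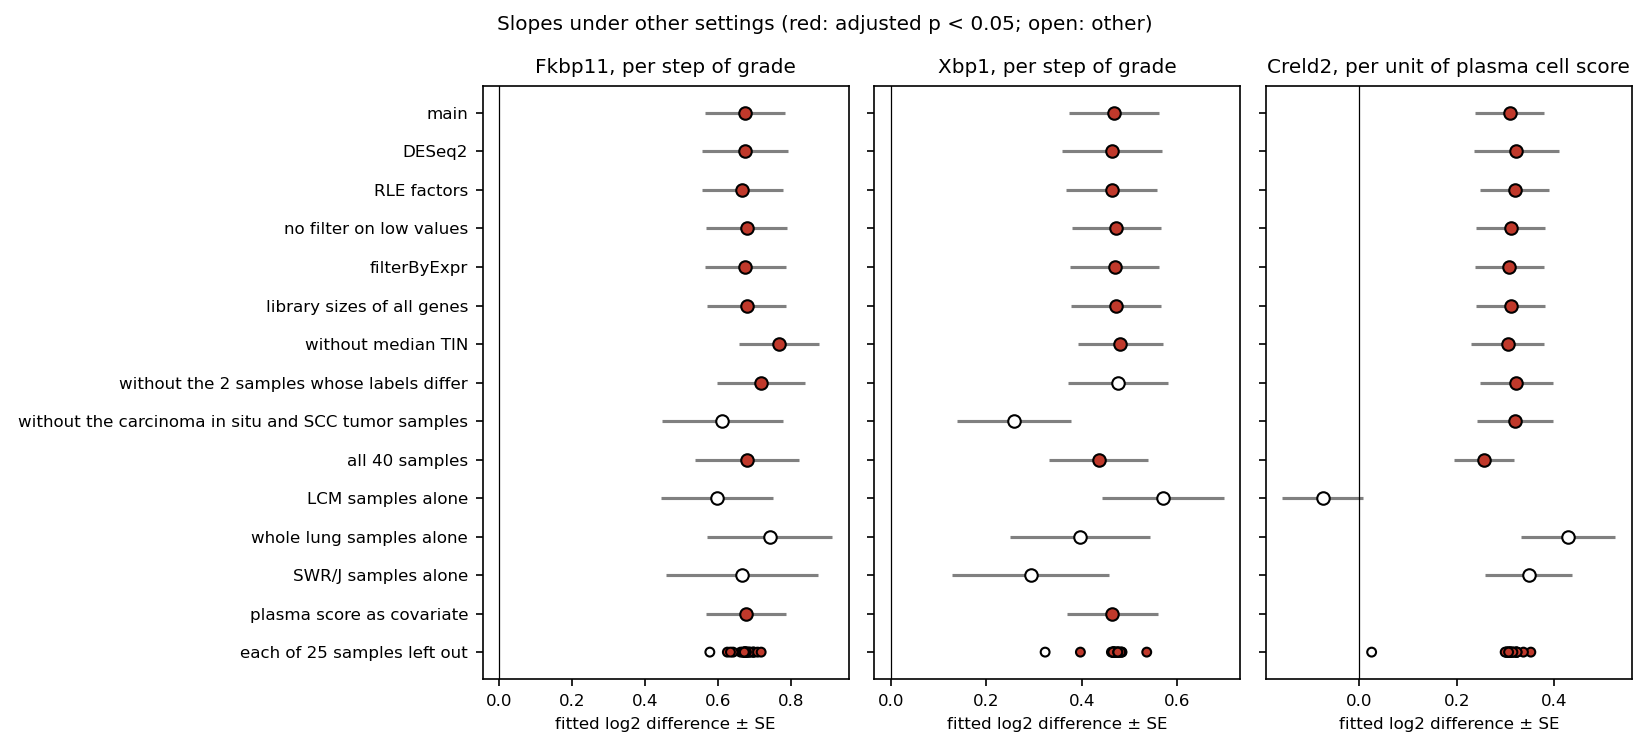
Fitted slopes (horizontal axis, with bars of 1 SE) of Fkbp11 and Xbp1 per step of grade and of Creld2 per unit of plasma cell score under each setting (vertical axis), red where the adjusted p was under 0.05. In the bottom row, 1 sample was left out at a time, without bars, and the open point furthest left is the fit without the SCC tumor (0.58 and 0.32) or, for Creld2, without the severe dysplasia sample high in plasma cell transcripts (0.026).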

How the data were processed

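RNA-seq of 40 mouse samples was read from the RSEM expected counts per gene that the authors deposited, not normalized. Per the labels and the study's methods, reads were trimmed with Trimmomatic, aligned to mm9 with STAR and counted with RSEM on an Ensembl annotation. The authors' QC label was kept. Members and gene lists were chosen with earlier results of these data known.

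Counts were rounded for the tests. Genes with an interquartile range above 0 and a summed TMM log2 CPM (prior count 2) above 1 over the 25 samples were kept, and library sizes and TMM factors were recomputed on them. edgeR 4.0.16 (R 4.3.3) quasi-likelihood tests included strain, sample type and median TIN, with Benjamini-Hochberg adjustment over all genes and a threshold of 0.05. SE is the difference divided by the root of F. Alternatives were DESeq2 1.42.0, RLE factors, other filters and library sizes, no TIN term, subsets by sample type and strain, all 40 samples, and leaving out samples. Code was tested on simulated data. Named were the 10 members, called genes of the 5 pathway lists (at most 4 per list, by size), 8 markers and the 1 most correlated gene per member. Of 19 plasma cell markers 15 were matched.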

Additional observations from a re-analysis of the deposited data

How the results depend on the processing

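The number of members called was recomputed under each alternative. In high-grade samples against normal it was 0 and became 1 with DESeq2. In mild dysplasia against normal it was 0 and became 3 with DESeq2, 2 with the plasma cell score as covariate and 1 with library sizes of all genes, a setting chosen after seeing the data. For the rank of grade it was 2 and became 1 without the 2 samples whose labels differ, and 0 in LCM samples alone, whole lung samples alone, SWR/J samples alone and, also chosen after seeing the data, without the carcinoma in situ and SCC tumor samples. For the plasma cell score it was 1 and became 2 with DESeq2, with RLE factors, without the 2 samples whose labels differ, with all 40 samples and with the plasma cell genes other than immunoglobulins, and 0 in LCM, whole lung or SWR/J samples alone, where Creld2 reversed to -0.074 in LCM samples. For the basal and squamous score it was 0 and became 1 (Fkbp11) without median TIN. In the remaining 78 of 96 recomputations the count stayed within 1.5 times. The cause was not tested, other than that subsets hold fewer samples.

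With each of the 25 samples left out in turn, the count ranged from 0 to 3 for mild dysplasia against normal, from 0 to 2 for the rank of grade, from 0 to 1 for LCM against whole lung and from 0 to 2 for the plasma cell score, and stayed at 0 for the other 3 comparisons. The rank of grade lost both calls without the SCC tumor and lost Xbp1 without the carcinoma in situ or without any of 3 normal samples (replicates 5, 6 and 9). In mild dysplasia calls appeared without normal replicates 5, 7, 8 and 9, moderate to severe replicates 5 and 11, the SCC tumor, or severe dysplasia replicate 4, the sample high in plasma cell transcripts. Without that sample Pdia4 was called between LCM and whole lung and Creld2 was lost with the plasma cell score, and without mild dysplasia replicate 5 Hsp90b1 was called with the score. The slope of Fkbp11 stayed between 0.58 and 0.72.

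Counts over all genes moved more: DESeq2 called 91 genes where edgeR called 3 (high-grade), 3653 against 1945 (mild dysplasia), 1377 against 51 (high-grade against mild), 538 against 41 (rank), 961 against 155 (strain) and 1099 against 481 (plasma cell score). Without median TIN edgeR called 2339 (high-grade against mild), 182 (rank), 2493 (strain) and 3084 in place of 1348 (basal and squamous score). Mild dysplasia against normal fell to 995 without the 2 samples whose labels differ, 1 with all 40 samples and 0 in LCM or whole lung samples alone. High-grade against mild dysplasia ranged from 0 (whole lung alone) to 211 (LCM alone) over the remaining settings, and LCM against whole lung went down to 565 in SWR/J samples alone. No scaling moved the median of all genes by over 0.038 log2 units. No paired analysis was possible because replicate numbers follow accession order and name no shared animal. Depth limits Fkbp11 most.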
